A study of Arabidopsis thaliana with 16 samples.

Results

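A set of 8 genes named for iron-sulfur enzymes and iron-sulfur assembly were followed along the Arabidopsis thaliana root: SIR, SDH2-1, SDH2-2, THIC, HCF101, ISU1, LIP1 and ETFQO. They were chosen by the gene named in the platform annotation, with earlier results of these data known. Counts among the 8 set against all probe sets are therefore not those of genes chosen blind to the values. The 8 genes have 9 of the 22746 probe sets on the array that are not controls, and 8 of these 9, 1 for each gene, passed the filter on low values, which kept 16505 probe sets in all. Only 7 of the 8 are iron-sulfur genes. The probe set annotated to LIP1 belongs to locus AT5G64813, which RefSeq names Light Insensitive Period1, a small GTPase of the circadian clock, and not to the lipoyl synthase that carries the same symbol. No probe set was annotated to the lipoyl synthase locus, AT2G20860 (count 0), so LIP1 is given below as a gene outside the iron-sulfur group. Counts out of the 8 genes include LIP1.

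Seedling roots of the Columbia accession were cut into 4 pieces on each of 2 media, with 2 Affymetrix arrays for each of the 8 groups and 16 arrays in all. Seedlings grew for 5 days on standard medium before transfer to -Fe medium, in which 0.3 mM Ferrozine, an iron chelator, takes the place of the iron salt, or to standard medium, which supplies iron as Fe(III)-EDTA. Zone 1 is the tip up to about 150 µm, zone 2 runs for some 200 µm more to where the meristem ends, zone 3 covers 200 to 300 µm and stops short of the emerging root hairs, and zone 4 is the 1000 µm after that. Each array held RNA pooled from about 15 roots, so a piece mixes all its cell types, and fewer cells of a type and less RNA per cell cannot be told apart. The labels give different times since transfer: 24 h for both media in the treatment protocol, but 24 h for -Fe and 1 h for standard roots in the sample descriptions. If the descriptions hold, medium and time since transfer cannot be told apart.

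Iron-sulfur clusters are cofactors built from iron and inorganic sulfide on scaffold proteins and then passed to enzymes that use them to carry electrons or to bind substrates. In plants the SUF machinery builds them in plastids, the ISC machinery in mitochondria, and a cytosolic pathway serves cytosolic and nuclear proteins. Root plastids use them for sulfite reduction and thiamine synthesis, and mitochondria use them throughout the respiratory chain.

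The labels' zones could be set against marker genes. A marker is called measured here if the annotation used gave it a probe set of its own. That annotation did not list 8730 of the 22746 probe sets, so the other markers may still be on the array. The summed intensity of the 4 measured of 7 root hair markers was 62.5 to 321 on -Fe and 104 to 1834 on standard medium over the arrays of zones 1 and 2. Over zones 3 and 4 it was 5469 to 18389 on -Fe and 7863 to 16261 on standard medium, so these markers were already high in zone 3. Their median log2 difference of -Fe minus standard medium was -1.11, -1.66, 0.21 and -0.58 in zones 1 to 4, and -0.86 averaged, with 4 of 4 below 0 and none past the limma test (lowest adjusted p = 0.0588). In zone 3 the marker AT3G49960 stood apart at -2.04 (SE 0.99), against 0.53, 0.29 and 0.13 for EXPA7, EXPA18 and PRX07. None of these passed there in limma. AT3G49960 was in the list used but not among the root hair markers named when the analysis was planned. Its averaged difference was -2.13, with the lowest adjusted p given above, against -0.38, -0.97 and -0.74 for EXPA7, EXPA18 and PRX07. The part of the root hair markers in the differences of the 8 genes was not tested. The 2 measured of 8 dividing cell markers, AUR1 and AUR2, summed to 1339 to 1564 in zone 1 and to at most 763 above it. RCA, Rubisco activase and the only measured one of 9 green tissue markers, ranged from 60.4 to 746 on -Fe arrays and from 59.1 to 917 on standard arrays. No marker that was measured had an intensity of 0. Values throughout are array intensities in linear units, and log2 differences are -Fe minus standard medium on the scale log2(intensity + 7.73), which understates changes of dim probe sets.

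Among the 8 genes, SIR was the only one that passed the test of medium when the 4 zones were averaged. It was lower on -Fe medium in every zone, and its level there was 42.5%, 39.6%, 35.6% and 22.7% of the standard mean in zones 1 to 4. The averaged test called 1 of the 8 genes, lower, against 1.41% of all probe sets called in either direction and 0.739% called lower. The median averaged difference was -0.42 for the 8 genes and -0.056 for all 16505 probe sets, and 6 of the 8 lay below 0, as did 59.4% of all probe sets. At an unadjusted p under 0.05 the averaged comparison held 4 of the 8 genes and 14.6% of all probe sets. The limma fit with replicate number as a block within each zone called 444 probe sets in place of 232, and of the 8 genes again only SIR.

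Separation of the media on the arrays was also counted. Both -Fe arrays lay below both standard arrays for 3, 4, 5 and 4 of the 8 genes in zones 1 to 4, against 15.1%, 20.3%, 17% and 26.5% of all probe sets. Both lay above for 2, 1, 1 and 1 of the 8 genes, against 15.5%, 13.8%, 11.7% and 16.8%. SDH2-1 and SDH2-2 stood below in zones 1, 3 and 4, and HCF101 in zones 2, 3 and 4. LIP1, outside the iron-sulfur group, was 1 of the 5 below in zone 3 and stood above in zones 1, 2 and 4.

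SIR (AT5G04590) encodes the plastid enzyme that reduces sulfite to sulfide in sulfate assimilation, with a siroheme coupled to an iron-sulfur cluster at its active site. Its intensities on -Fe medium were 365 and 425 in zone 1, 396 and 423 in zone 2, 293 and 198 in zone 3, with 265 and 271 in zone 4. On standard medium they were 975 and 883 in zone 1, 840 and 1228 in zone 2, 707 and 672 in zone 3, with 1275 and 1092 in zone 4. The highest of the 8 -Fe arrays lay below the lowest of the 8 standard arrays, so the media did not overlap in any of the 4 zones, which 1.01% of all probe sets also showed in the same direction.

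**Figure D1:**
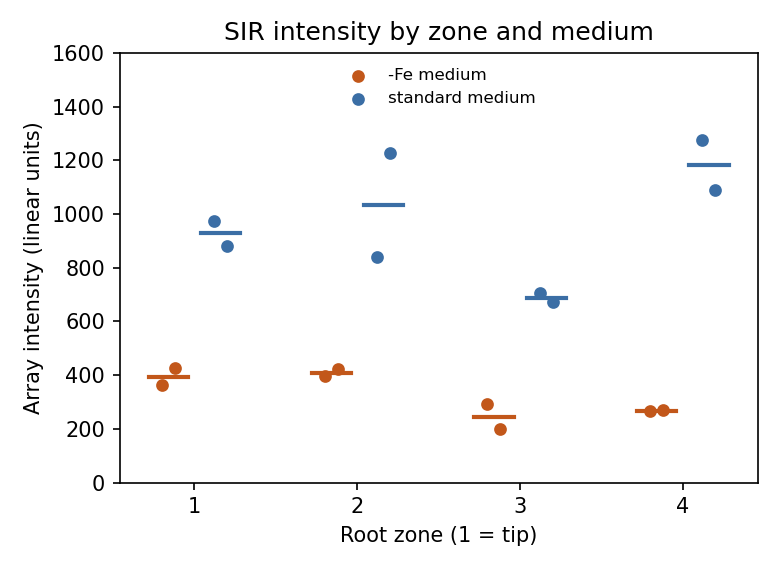
SIR intensity (linear units, vertical axis) in root zones 1 to 4 (horizontal axis) on -Fe medium (orange, left in each zone) and standard medium (blue, right). Points are arrays, 2 per group, and bars are group means; all 8 -Fe arrays, from 198 to 425, lie below all 8 standard arrays, from 672 to 1275.

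Averaged over the zones, SIR fell by 1.53 ± 0.12 on the log2 scale (SE, n = 8 arrays per medium; limma, Benjamini-Hochberg adjusted p = 7.88e-06; 4 of 4 zones lower). It ranked 25 of 16505 when the probe sets were ordered from the lowest difference up. Without any single array the difference stayed between -1.60 and -1.46, with adjusted p of at most 7.38e-05 in limma.

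Zone by zone, SIR passed the test in zones 3 and 4 and not in zones 1 and 2. The count of called genes among the 8 was 0, 0, 1 and 1 in zones 1 to 4, where limma called 0.109%, 0.103%, 0.291% and 0.927% of all probe sets. The differences were -1.22, -1.30, -1.49 and -2.11 in zones 1 to 4, each with a SE of 0.23 (n = 2 arrays per group). The limma adjusted p-values were 0.123, 0.0814, 0.0147 and 0.000434 in the same order. At an unadjusted p under 0.05, 2, 1, 4 and 3 of the 8 genes stood in zones 1 to 4, SIR among them each time. The shares of all probe sets were 2.48%, 3.61%, 6.83% and 11.3%. LIP1, outside the iron-sulfur group, was 1 of the 4 in zone 3 (limma unadjusted p = 0.0329).

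The zone 4 call for SIR held without each of the 16 arrays in turn. The zone 3 call did not: limma's adjusted p was 0.0578 without the second standard array of zone 3 and 0.224 without the second -Fe array of zone 3, and 0.566 with only the 4 arrays of that zone. Limma with array weights called SIR in zones 1 and 2 as well (adjusted p = 0.0428 and 0.0389), and no longer in zone 3 (adjusted p = 0.112).

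SIR passing in the upper zones and not in the lower ones does not show that the zones differ. The mean difference in zones 3 and 4 minus that in zones 1 and 2 was -0.54 ± 0.23 (SE, 8 arrays in each pair of zones), with an unadjusted p of 0.0379 and an adjusted p of 0.999 in limma. An F test of any difference between the zones gave an unadjusted p of 0.0708 and an adjusted p of 0.9999. In limma neither comparison called any of the 8 genes (0 of 8 each), where 0.133% and 0.121% of all probe sets were called. At an unadjusted p under 0.05 the first held 1 of the 8 and 4.8% of all probe sets, and the F test 0 of the 8 and 2.99%.

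Along the root SIR had different orders of zones on the 2 media. On -Fe medium its mean was 245 in zone 3, 268 in zone 4, 395 in zone 1 and 409 in zone 2, and on standard medium it was 689 in zone 3, 929 in zone 1, 1034 in zone 2 and 1183 in zone 4. Zone 3 was thus the lowest on both media, while zone 4 was next to the lowest on -Fe and the highest on standard medium. The limma F test over the 4 zones called SIR on both media (adjusted p = 0.0198 on -Fe and 0.0483 on standard medium). The standard call was lost without each of 12 of the 16 arrays, and the -Fe call without each of 3 arrays. In 5 of 10 other settings the standard call was lost too. These were array weights (limma adjusted p = 0.149), median centring (0.0932), no filter (0.0546), and replicate blocks over all arrays (0.0509) or within each zone (0.0516). Between neighbouring zones the test called the drop from zone 2 to zone 3 on -Fe medium, -0.75 ± 0.23 (SE, n = 2 arrays per zone; limma adjusted p = 0.0171, at most 0.177 without 1 array); no other step of SIR passed.

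The genes whose pattern over the 16 arrays was most like that of SIR, by Pearson correlation of log2 values among 9057 genes with a probe set of their own, were SAPX (r = 0.95), AT3G49160 (r = 0.85) and AT2G36885 (r = 0.84). SAPX encodes a stromal ascorbate peroxidase, which uses heme to remove hydrogen peroxide. Averaged over the zones, their log2 differences with the medium were -1.79 for SAPX, -3.22 for AT3G49160 and -2.29 for AT2G36885. The 3 were picked for likeness to SIR on these same arrays, where SIR differed with the medium. Their falls on -Fe medium follow from that choice and are not a separate result. The correlations are over arrays that share these media and zones.

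THIC (AT2G29630) encodes the plastid enzyme that makes the pyrimidine part of thiamine, a radical enzyme with an iron-sulfur cluster. Its intensities on -Fe medium were 94.5 and 129 in zone 1, 84.8 and 60.4 in zone 2, 64.8 and 28.3 in zone 3, with 118 and 63.4 in zone 4. The standard arrays gave 125 and 136 in zone 1, 185 and 104 in zone 2, 147 and 28.3 in zone 3, with 249 and 77.2 in zone 4. The media overlapped in 3 of 4 zones, and only in zone 2 did both -Fe arrays lie below both standard arrays. The 2 standard arrays of zone 3 lay far apart, with the lower of them level with the lowest -Fe array.

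The averaged difference of THIC was -0.57 ± 0.33 (SE, n = 8 arrays per medium; limma adjusted p = 0.452), with a 95% interval from -1.28 to 0.13 and 4 of 4 zones lower. It ranged from -0.84 without the second to -0.31 without the first standard array of zone 3. THIC did not pass the F test over zones on either medium (limma adjusted p = 0.363 on -Fe and 0.424 on standard medium). With the block within each zone it did (0.0320 and 0.0473). Over the 16 arrays its log2 values correlated with those of RCA at r = 0.60, and RCA averaged -0.87 with the medium (limma adjusted p = 0.437); the part of RCA-expressing tissue in the values of THIC was not tested.

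**Figure D2:**
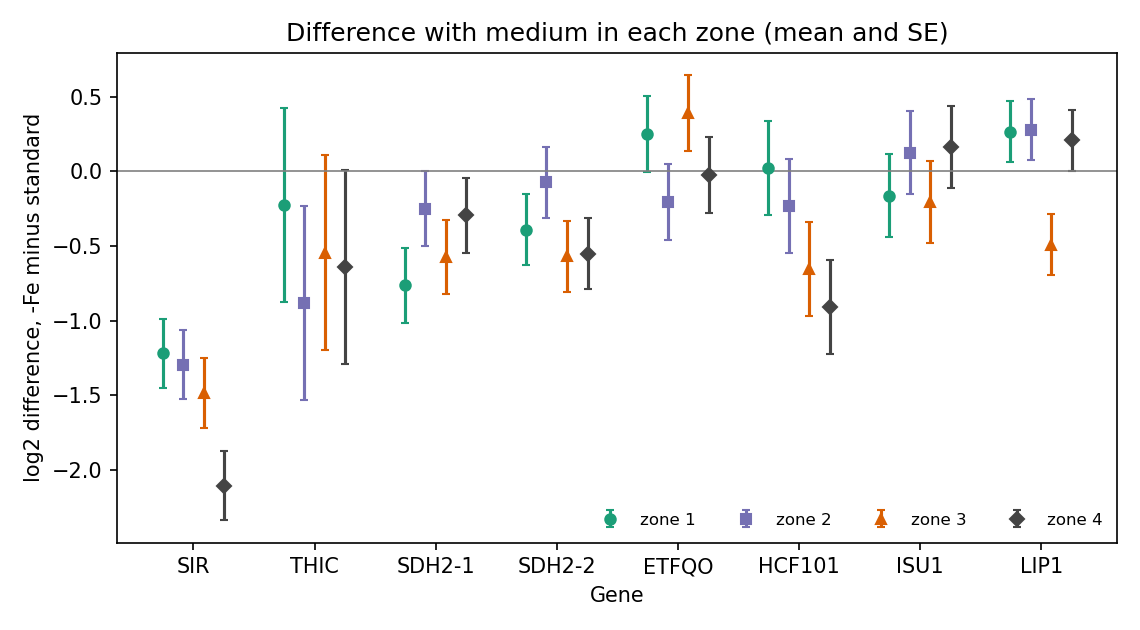
Log2 difference of -Fe minus standard medium (vertical axis) for each of the 8 genes (horizontal axis) in zones 1 to 4 (symbols, left to right), with SE bars from the limma fit (n = 2 arrays per group). SIR lies lowest in each zone, from -1.22 to -2.11, THIC has the widest bars (SE 0.65), and ISU1, ETFQO and LIP1 lie on both sides of 0.

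SDH2-1 (AT3G27380) and SDH2-2 (AT5G40650) encode paralogous versions of the iron-sulfur subunit of mitochondrial complex II, succinate dehydrogenase, which passes electrons from succinate towards ubiquinone. Both had lower means on -Fe medium in 4 of 4 zones, and neither passed the averaged test. SDH2-1 changed along the root on both media, with its highest mean in zone 4. SDH2-2 did not pass that test on either medium, though some other settings called it on -Fe medium. Their probe sets have different sequences, so the levels of the pair are not set against each other.

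SDH2-1 intensities on -Fe medium were 736 and 689 in zone 1, 1381 and 1444 in zone 2, 1906 and 2398 in zone 3, with 2650 and 3550 in zone 4. On standard medium the values were 1285 and 1147 in zone 1, 2215 and 1278 in zone 2, 2770 and 3665 in zone 3, with 3612 and 3922 in zone 4. Both -Fe arrays lay below both standard arrays in zones 1, 3 and 4, and the media overlapped in zone 2, where 1 standard array was low. The averaged difference of SDH2-1 was -0.47 ± 0.13 (SE, n = 8 arrays per medium; limma adjusted p = 0.101), with a 95% interval from -0.74 to -0.20. It passed under quantile normalization (-0.53, limma adjusted p = 0.0424), the only 1 of 10 other settings to call it. Over those settings the difference shrank to as little as -0.34, with limma adjusted p up to 0.375. Leaving out 1 array gave differences from -0.57, without the second standard array of zone 2, to -0.37. The first of these runs also called SDH2-1, and it left 1 standard array in zone 2.

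The mean of SDH2-1 was 4.35 times as high in zone 4 as in zone 1 on -Fe medium and 3.10 times on standard medium. The order of the zones was 1, 2, 3, 4 on both media. The F test over zones called SDH2-1 on -Fe medium (limma adjusted p = 4.73e-05) and on standard medium (0.000207), and did so without each array in turn. Such a call was common: 5 of the 8 genes had it on -Fe medium, where 77.4% of all probe sets did, and 4 of 8 on standard medium, where 73.7% did.

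Between neighbouring zones, SDH2-1 rose by 0.98 ± 0.25 from zone 1 to zone 2 on -Fe medium (limma adjusted p = 0.0126) and by 0.92 ± 0.25 from zone 2 to zone 3 on standard medium (0.00875; SE, n = 2 arrays per zone). Each step rests on 4 arrays. Without the low standard array of zone 2 the step to zone 3 was 0.52 (limma adjusted p = 0.129), without the second standard array of zone 3 it was 0.72 (0.0644), and the -Fe step lost its call without each of 3 arrays (adjusted p up to 0.0782). The steps from zone 3 to zone 4, 0.52 on -Fe and 0.24 on standard medium, did not pass.

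The second probe set annotated to SDH2-1 had intensities of 0.495 to 7.32 on -Fe arrays and 1.39 to 10.3 on standard arrays. It was below its array's 40th percentile on every array and was not tested, so the pattern of SDH2-1 rests on the other probe set.

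**Figure D3:**
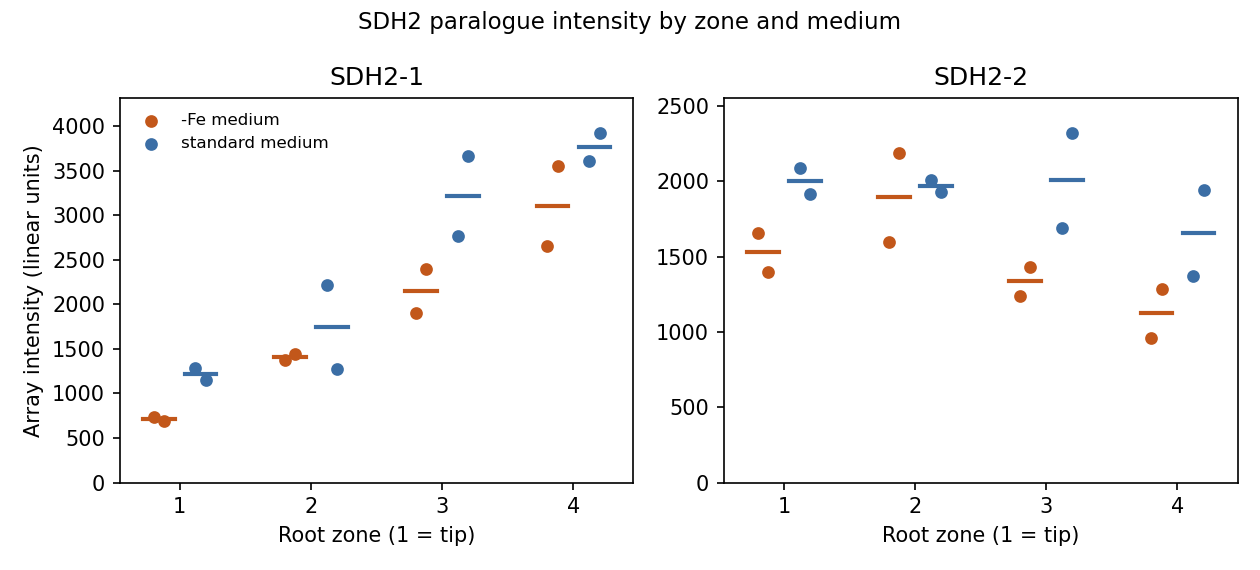
Intensity (linear units, vertical axes, separate scales) of SDH2-1 (left) and SDH2-2 (right) in zones 1 to 4 (horizontal axes) on -Fe medium (orange, left in each zone) and standard medium (blue, right). Points are arrays, 2 per group, and bars are group means; SDH2-1 means climb from 712 to 3100 on -Fe and from 1216 to 3767 on standard medium between zones 1 and 4, and SDH2-2 means stay between 1124 and 1895 on -Fe and between 1658 and 2007 on standard medium.

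SDH2-2 intensities on -Fe medium were 1658 and 1399 in zone 1, 1600 and 2189 in zone 2, 1239 and 1434 in zone 3, with 962 and 1286 in zone 4. The standard arrays read 2090 and 1916 in zone 1, 2007 and 1930 in zone 2, 1693 and 2321 in zone 3, with 1372 and 1944 in zone 4. The -Fe arrays lay below the standard arrays in zones 1, 3 and 4 and overlapped them in zone 2, the same zones as for SDH2-1. The averaged difference of SDH2-2 was -0.40 ± 0.12 (SE, n = 8 arrays per medium; limma adjusted p = 0.148), with a 95% interval from -0.65 to -0.14.

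On -Fe medium SDH2-2 had its lowest mean in zone 4 and its highest in zone 2, and on standard medium its lowest in zone 4 and its highest in zone 3. The F test over zones did not pass on either medium (limma adjusted p = 0.0601 on -Fe and 0.598 on standard medium). On -Fe medium it passed without each of 6 of the 16 arrays, and in 4 of 10 other settings on all arrays. Those 4 settings were the replicate block within each zone (limma adjusted p = 0.0229) or over all arrays (0.0341), array weights (0.0264) and quantile normalization (0.0391).

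The balance of the pair was followed as log2 SDH2-1 minus log2 SDH2-2 within each array. Only changes in this difference are given. From zone 1 to zone 4 it went up by 2.55 on -Fe medium and by 1.92 on standard medium. Averaged over the zones, its change with the medium was -0.074 (8 arrays per medium). An exact two-sided permutation test within zones gave p = 0.593 over 1296 arrangements, where the smallest p possible was 0.00154. By zone, the difference between media was -0.37, -0.18, -0.0039 and 0.26 in zones 1 to 4, on 2 arrays per group and without a test.

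ETFQO (AT2G43400) encodes the electron-transfer flavoprotein:ubiquinone oxidoreductase, an iron-sulfur flavoprotein of the inner mitochondrial membrane that takes electrons from the breakdown of branched-chain amino acids. Its intensities on -Fe medium were 156 and 189 in zone 1, 108 and 106 in zone 2, 139 and 117 in zone 3, with 187 and 152 in zone 4. The standard values were 151 and 137 in zone 1, 112 and 138 in zone 2, 103 and 89.3 in zone 3, with 214 and 137 in zone 4. The -Fe arrays were the higher ones in zones 1 and 3 and the lower ones in zone 2, and the media overlapped in zone 4. The averaged difference was 0.10 ± 0.13 (SE, n = 8 arrays per medium; limma adjusted p = 0.756), with a 95% interval from -0.17 to 0.38. The F test over zones gave limma adjusted p-values of 0.0841 on -Fe and 0.0651 on standard medium.

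HCF101 (AT3G24430) encodes a plastid scaffold protein that carries iron-sulfur clusters to their targets and is best known from the assembly of photosystem I in leaves. Its intensities on -Fe medium were 189 and 264 in zone 1, 89.3 and 88.9 in zone 2, 97.8 and 46.6 in zone 3, with 84.8 and 57.5 in zone 4. On standard medium the arrays gave 220 and 221 in zone 1, 113 and 99.5 in zone 2, 125 and 99.4 in zone 3, with 140 and 136 in zone 4. The media overlapped in zone 1, and both -Fe arrays lay below both standard arrays in zones 2, 3 and 4.

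HCF101 differed by -0.44 ± 0.16 on average (SE, n = 8 arrays per medium; limma adjusted p = 0.215), with a 95% interval from -0.78 to -0.10. By zone the differences were 0.021, -0.23, -0.65 and -0.91 in zones 1 to 4, each with a SE of 0.31, and none passed (limma adjusted p = 0.263 in zone 4). The zone 3 value was -1.13 without the first and -0.17 without the second -Fe array of that zone. The upper zones minus the lower ones came to -0.68 ± 0.31 (SE; unadjusted p = 0.0513, limma adjusted p = 0.999), and -0.44 without the second -Fe array of zone 3.

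Zone 1 held the highest mean of HCF101 on both media, 227 on -Fe and 220.5 on standard medium. The F test over zones passed on -Fe medium (limma adjusted p = 0.00124, and without each array in turn) and on standard medium (0.0379), where the call was lost without each of 9 of the 16 arrays (up to 0.154) and without the filter (0.0552). The step from zone 1 to zone 2 was -1.26 ± 0.31 on -Fe medium (limma adjusted p = 0.0116; up to 0.1002 without 1 array) and -1.004 ± 0.31 on standard medium (0.0407; up to 0.156 without 1 array; SE, n = 2 arrays per zone). The standard step was not called in 3 of 10 other settings. These were median centring (limma adjusted p = 0.0515), no offset (0.0532) and no filter (0.0583). Above zone 2 the neighbouring zones did not differ beyond the test for HCF101 on either medium. The dividing cell markers were also highest in zone 1; their part in this profile was not tested. RCA correlated over the 16 arrays at r = 0.54 with HCF101, 0.56 with ETFQO and -0.60 with LIP1, and between -0.29 and 0.35 with SIR, SDH2-1, SDH2-2 and ISU1; the part of RCA-expressing tissue was not tested for these either.

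ISU1 (AT4G22220) encodes the main scaffold protein of the mitochondrial ISC machinery, on which clusters are first put together. Its intensities on -Fe medium were 361 and 335 in zone 1, 299 and 411 in zone 2, 252 and 297 in zone 3, with 478 and 581 in zone 4. The standard arrays had 324 and 470 in zone 1, 282 and 365 in zone 2, 348 and 288 in zone 3, with 377 and 586 in zone 4. The media overlapped in all 4 zones. The averaged difference was -0.021 ± 0.14 (SE, n = 8 arrays per medium; limma adjusted p = 0.961), with a 95% interval from -0.32 to 0.28.

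ISU1 was highest in zone 4 and lowest in zone 3 on both media. On -Fe medium it rose by 0.93 ± 0.28 from zone 3 to zone 4 (SE, n = 2 arrays per zone; limma adjusted p = 0.0383), a call lost without each of the 4 arrays of those zones (adjusted p up to 0.225) and with arrays centred on their medians (0.105). The F test over zones gave limma adjusted p-values of 0.0459 on -Fe medium and 0.221 on standard medium, and the -Fe call was lost without each of 7 of the 16 arrays (up to 0.239), with quantile normalization (0.0510), with median centring (0.110) and without the filter (0.0543).

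LIP1 (AT5G64813), the clock GTPase, stood beside these genes by its symbol alone. Its intensities on -Fe medium were 204 and 194 in zone 1, 455 and 370 in zone 2, 202 and 177 in zone 3, with 231 and 221 in zone 4. On standard medium they stood at 146 and 184 in zone 1, 316 and 358 in zone 2, 263 and 275 in zone 3, with 188 and 202 in zone 4. The -Fe arrays were the higher ones in zones 1, 2 and 4 and the lower ones in zone 3. The averaged difference was 0.065 ± 0.10 (SE, n = 8 arrays per medium; limma adjusted p = 0.812), and no zone passed.

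Zone 2 held the highest mean of LIP1 on both media. The F test over zones called LIP1 on -Fe medium (limma adjusted p = 0.00115) and on standard medium (0.00287), and did so without each array in turn. On -Fe medium it rose by 1.02 ± 0.21 from zone 1 to zone 2 and fell by 1.09 ± 0.21 from zone 2 to zone 3 (SE, n = 2 arrays per zone; limma adjusted p = 0.00469 and 0.000850). On standard medium it rose by 1.003 ± 0.21 from zone 1 to zone 2 (limma adjusted p = 0.00809; 0.0657 without the first standard array of zone 1 and 0.0545 without the first of zone 2).

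**Figure D4:**
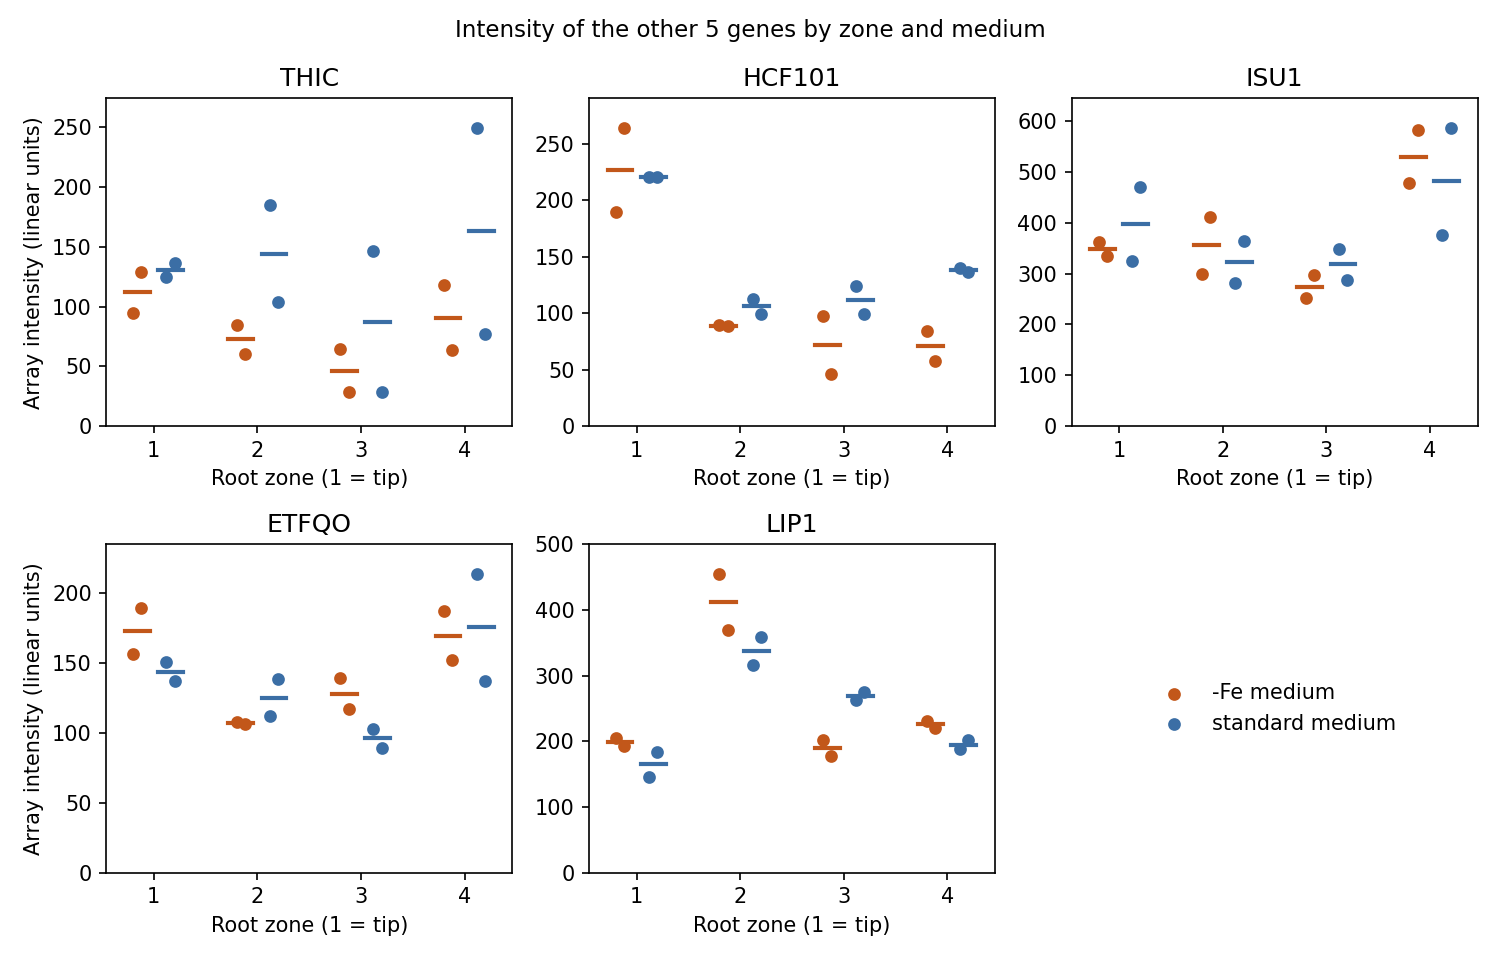
Intensity (linear units, vertical axes, separate scales) of THIC, HCF101, ISU1, ETFQO and LIP1 in zones 1 to 4 (horizontal axes) on -Fe medium (orange, left in each zone) and standard medium (blue, right). Points are arrays, 2 per group, and bars are group means; HCF101 is highest in zone 1, LIP1 in zone 2 and ISU1 in zone 4 on both media, and the 2 standard arrays of THIC in zone 3 lie at 28.3 and 147.

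Steps between neighbouring zones were counted over the 8 genes. On -Fe medium 3 of 8 genes passed between zones 1 and 2, 2 of 8 between zones 2 and 3 and 1 of 8 between zones 3 and 4, where limma called 30.7%, 50.6% and 15.6% of all probe sets. On standard medium the counts were 2, 1 and 0 of 8, against 20.5%, 50% and 8.58% of all probe sets. Between zones 3 and 4 on standard medium 3 of the 8 and 26.4% of all probe sets stood at an unadjusted p under 0.05, SIR among them (0.77 ± 0.23, limma adjusted p = 0.0583).

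Pairwise Pearson correlations of log2 values among the 8 genes over 16 arrays ran from -0.61 to 0.60, and the highest was between SIR and SDH2-2. The genes most like each of the others were mostly known here by locus only. For ISU1 they were COAD, of coenzyme A synthesis (r = 0.86), SIS (r = 0.86) and IVD, the isovaleryl-CoA dehydrogenase of leucine breakdown (r = 0.86). HCF101 was most like AT5G48790 (r = 0.95), SDH2-1 most like AT5G26010 (r = 0.96), LIP1 most like AT2G36300 (r = 0.91), SDH2-2 most like AT2G20420 (r = 0.86), ETFQO most like AT4G00040 (r = 0.86) and THIC most like AT3G14240 (r = 0.84).

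The wider pathways were read from 10 lists of 136 loci, of which 33 had a probe set annotated to that gene alone, and 26 of those were not among the 8 genes. None of the 26 passed the limma test averaged over the zones (0 lower and 0 higher; 4 at an unadjusted p under 0.05, against 14.6% of all probe sets) or in any zone (0, 1, 0 and 3 at an unadjusted p under 0.05 in zones 1 to 4, against 2.48%, 3.61%, 6.83% and 11.3% of all probe sets). Their median averaged difference was 0.0057, against -0.056 for all probe sets, and 13 of the 26 lay below 0. No other gene of these lists was therefore named by the rule, and those named next were chosen after their values were seen.

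Of the plastid list of enzymes and ferredoxins, the 2 genes besides SIR and THIC were AT3G23940, with the lowest averaged difference of the 26 (-0.70 ± 0.16, SE, limma adjusted p = 0.0614), and AT2G04700 (-0.00021 ± 0.10). AT3G23940 averaged 1503 on -Fe and 2106 on standard medium. In the sulfate assimilation and siroheme list, the genes besides SIR were SIRB, the ferrochelatase of siroheme synthesis (-0.063 ± 0.099), and the ATP sulfurylases APS3 (0.27 ± 0.25) and APS4 (0.069 ± 0.14). None of these 3 passed (limma adjusted p from 0.676 to 0.865). APS3 had the highest difference of the 26 in zone 4, 1.13 ± 0.50 (SE, limma adjusted p = 0.421).

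Of the complex II list, the flavoprotein subunits SDH1-1 and SDH1-2 differed by -0.078 ± 0.11 and 0.038 ± 0.21 (SE). SDH1-1 averaged 3155 on -Fe and 3325 on standard medium. The mitochondrial assembly list held ISU1 and 6 other genes, with averaged differences that ran from -0.45 ± 0.20 for AT5G03905 (SE, limma adjusted p = 0.325) to 0.34 ± 0.11 for AT2G16710 (0.183). AT2G16710 averaged 781 on -Fe and 586 on standard medium. The plastid assembly list held HCF101 and 3 others, among them the cysteine desulfurase CPNIFS (0.012 ± 0.17) and SUFE2 (-0.069 ± 0.40). The list around ETFQO held 6 others, among them both subunits of its electron donor, ETFALPHA (0.10 ± 0.12) and ETFBETA (-0.10 ± 0.12, SE), and their adjusted p-values ran from 0.728 to 0.973 in limma.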

How the data were processed

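RNA from 16 pools of root pieces was amplified in 2 cycles and hybridised to Affymetrix ATH1 arrays, per the labels' protocols. The deposited values are linear intensities made with MAS5 per the submitters' processing notes (version not given in the sources used here); each array's trimmed mean lay near 250 units. Signal depth cannot be read from them, and the number of arrays limits the precision. After removal of 64 control probe sets, log2(intensity + 7.73) was used, 7.73 being the 20th percentile, with no further normalization. The filter asked for a value over the array's own 40th percentile on 2 arrays or more. Group means were fitted with limma 3.58.1 in R 4.3.3 (8 residual degrees of freedom, intensity trend), with Benjamini-Hochberg adjustment over all 16505 probe sets and a threshold of 0.05. The fit was tested on simulated data. Genes were named from the platform annotation, updated to RefSeq (TAIR10.1; 13436 of 13513 single-gene probe sets matched); no coordinates or sequences were used here.

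The 8 genes and the pathway lists were chosen with earlier results of these data known. The rule named the 8 genes, up to 4 others per list past the averaged test or the test in a zone, and the 3 genes most correlated with each. All 3 are printed for SIR and ISU1, and only the first for the other genes. The labels do not say that replicates are separate cultures, so p-values may measure technical spread only. Same-numbered arrays of a zone deviated together (r from 0.18 to 0.37 in the 4 zones), a pairing taken from the data and not the labels and not particular to a zone (15 of all 28 pairs of groups over 0.1, r from -0.13 to 0.46), so a fit with replicate blocks was also made. Other alternatives changed the offset, filter, normalization, array weights or arrays used.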

Additional observations from a re-analysis of the deposited data

Results flagged for a closer look

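LIP1 and ETFQO were singled out because their arrays moved with the medium in opposite directions in different zones, with no overlap between the media. For LIP1 (the clock GTPase) the log2 difference of -Fe minus standard medium was 0.27 in zone 1, 0.28 in zone 2 and 0.21 in zone 4, with both -Fe arrays above both standard arrays, and -0.49 in zone 3, with both below. For ETFQO it was 0.25 in zone 1 and 0.39 in zone 3, with both -Fe arrays above, and -0.21 in zone 2, with both below. With 2 arrays per group such separation is common: between 11.7% and 26.5% of all probe sets were fully separated in a given direction in a zone. The share of all probe sets separated in opposite directions in different zones was not counted. It is therefore not shown that LIP1 and ETFQO stand out by this trait. The opposite directions were not tested pair by pair; the limma F test of any difference between zones gave an unadjusted p of 0.0559 for LIP1 and 0.385 for ETFQO, and an adjusted p of 0.9999 for each.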

How the results depend on the processing

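SIR averaged over the zones kept its direction and its call in every alternative run, from -1.60 to -1.40. The count of the 8 genes called averaged was 2 with quantile normalization (SDH2-1 added) and 1 to 2 without 1 array. The zone counts with array weights were 1 in zone 1, 1 in zone 2 and 0 in zone 3. With only the 4 arrays of a zone, zone 3 gave 0. Without 1 array the counts were 0 to 0 in zones 1 and 2, 0 to 1 in zone 3, 1 to 1 in zone 4, 3 to 6 for the zone profile on -Fe medium and 2 to 4 on standard medium. The standard profile count was 2 without the filter. The causes were not tested. Median centring turned the sign of uncalled differences: ISU1 averaged 0.11, ISU1 upper minus lower zones 0.034, SDH2-2 in zone 2 0.12 and ETFQO in zone 4 0.12, the last also with quantile normalization (0.085). Median centring moved the median of all probe sets to 0.12 in zone 2, against -0.065, and to 0.072 averaged, against -0.056.

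Leaving out 1 array gave both signs for ISU1 averaged (-0.099 to 0.058), in zone 1 (-0.42 to 0.10), zone 2 (-0.10 to 0.35), zone 4 (-0.15 to 0.48) and upper minus lower (-0.16 to 0.15); THIC in zone 3 (-1.59 to 0.50), zone 4 (-1.44 to 0.16) and upper minus lower (-0.56 to 0.49); SDH2-1 in zone 2 (-0.65 to 0.14) and upper minus lower (-0.12 to 0.27); SDH2-2 in zone 2 (-0.30 to 0.15), HCF101 in zone 1 (-0.21 to 0.25), ETFQO in zone 4 (-0.33 to 0.28) and the SDH2-1 against SDH2-2 change (-0.17 to 0.017).

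The replicate block within each zone called 444 probe sets averaged, against 232, and the block over all arrays 35 for any difference between zones, against 20. Neither changed an iron call of the 8 genes. The block over all arrays also called SDH2-2 over zones on -Fe medium (adjusted p = 0.0341) and lost SIR on standard medium (0.0509). Over all probe sets, the counts in zones 2 and 3 were 26 and 23 with array weights, against 17 and 48; those in zones 1 and 3 were 0 and 14 with only that zone's arrays, against 18 and 48. Upper minus lower zones gave 10 with no offset, against 22; any difference between zones gave 11, 31 and 10 with the offset halved, doubled and left out. Without 1 array the counts ran from 147 to 319 averaged, 3 to 21, 6 to 22, 23 to 125 and 63 to 223 in zones 1 to 4, 12 to 44 for upper minus lower zones and 6 to 28 for any difference, so the shares of all probe sets given as background move likewise.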
